A study of Mus musculus with 26 samples.

Results

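Lymph node IgA clonotypes were compared according to whether the same clonotype was also found in the spleen of the same replicate number. A clonotype was a V gene, a J gene and a junction nucleotide sequence, where the junction runs from the conserved cysteine codon at the end of V to the conserved tryptophan codon in J and encloses CDR3, the most variable loop of the antibody. Members were chosen by isotype in lymph node, as clonotypes with more than 50% of their copies read as IGHA, and were then divided by presence in spleen. There were 1353 such clonotypes among 293492 lymph node clonotypes and 1674869 clonotypes in the whole series. Of these, 562 were present in the spleen of the same number and 791 were absent from it. All 1353 members entered the comparisons of present with absent clonotypes, except that V genes were tested only above a minimum count.

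The heavy-chain transcripts came from B cells of wild-type (WT) mice after association with *Staphylococcus epidermidis*, a commensal bacterium of the skin. Lymph node and spleen had 4 biological replicates each, with 2 technical libraries per replicate, and no unassociated mice entered the comparison, so every group carries the association. The labels do not say which lymph nodes were taken, how old the mice were, or whether tissues of the same number came from the same mouse, and their tissue field reads ear skin for all libraries, so tissues were taken from the titles. P-values measure the spread between these replicates. Lymph node replicates held 93191 to 228065 copies, of which the members made up 12701 in all, and spleen replicates held 162168 to 1362176 copies. A copy is 1 unit of the deposited count, which may be a molecule or a read.

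IgA is the antibody class secreted across mucosal surfaces, and its constant gene Igha lies at chr12:113256204-113260236 (GRCm38). It is the last of the constant genes in the order of transcription, and Ighm, the IgM gene at chr12:113418826-113422730, is the first. A B cell joins its V, D and J segments before it meets antigen, and the junction then marks its descendants. Class switching exchanges the constant gene while the V region stays, and somatic hypermutation in germinal centres adds base changes to the V segment, so descendants of 1 cell can differ in isotype and in mutation. Plasma cells carry far more immunoglobulin transcript than resting B cells. In bulk RNA more cells of a clone and more transcript per cell cannot be told apart, which applies to every copy number given here.

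The clonotypes with most lymph node copies, found in both technical libraries, are shown first because the later results refer back to them: for each replicate the largest one present in spleen, then the largest one absent from it. The junction is written 5′ to 3′ as deposited, and the capitals mark CDR3.
IGHV2-9-1 with IGHJ4, replicate 1, present: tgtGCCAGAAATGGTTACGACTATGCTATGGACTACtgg
IGHV1-63 with IGHJ4, replicate 1, absent: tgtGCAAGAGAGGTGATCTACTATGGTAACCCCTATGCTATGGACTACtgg
IGHV5-12 with IGHJ2, replicate 2, present: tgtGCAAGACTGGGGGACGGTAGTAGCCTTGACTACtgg
IGHV1-26 with IGHJ2, replicate 2, absent: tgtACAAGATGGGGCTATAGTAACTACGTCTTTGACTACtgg
IGHV1-53 with IGHJ4, replicate 3, present: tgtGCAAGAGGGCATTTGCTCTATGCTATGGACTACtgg
IGHV5-2 with IGHJ4, replicate 3, absent: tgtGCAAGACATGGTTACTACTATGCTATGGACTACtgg
IGHV6-3 with IGHJ2, replicate 4, present: tgcACCGGCGATCTACTCCGTGACTACtgg
IGHV1-76 with IGHJ2, replicate 4, absent: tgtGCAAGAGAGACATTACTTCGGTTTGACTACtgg

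The largest present clonotype of each replicate was larger than the largest absent one. The IGHV2-9-1 clonotype had 163 lymph node copies and 55 spleen copies, against 136 lymph node copies of the absent IGHV1-63 clonotype. In replicate 2 the IGHV5-12 clonotype had 733 lymph node and 1176 spleen copies, against 27 copies of the absent IGHV1-26 clonotype. The IGHV1-53 clonotype of replicate 3 had 685 lymph node and 993 spleen copies, against 18 copies of the absent IGHV5-2 clonotype, and was also found in the skin of the same number. In replicate 4 the IGHV6-3 clonotype had 2337 lymph node copies but 18 spleen copies, mostly IgM and none of them IgA, against 67 copies of the absent IGHV1-76 clonotype. The absent IGHV5-2 clonotype was found in 1 spleen of another number. The other 3 absent clonotypes shown were found in no spleen.

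Isotype calls near the threshold need care. All copies were IgA in 1324 of the 1353 members, and the other 29 also held copies of another class. The member nearest the threshold was the IGHV6-3 clonotype of replicate 4, with 51.4% IgA copies. Its 1201 copies in technical library 1 were all IgA and its 1136 copies in technical library 2 were all IgM, although both libraries held 1 and the same sequence. Of the 270 members found in both technical libraries, 257 were mostly IgA in each and 13 in only 1 of them. A further 84 lymph node clonotypes held IgA copies without being members, 45 of them at exactly 50% and the nearest of the others at 49.0%. In replicates 1 to 3 members held 93.0%, 98.6% and 91.6% of all IgA copies of the lymph node, but 52.1% in replicate 4, where 5498 of 11479 IgA copies lay outside the members. Of these, 5459 belonged to a single clonotype, IGHV5-9-1 with IGHJ4, the one at 49.0%. It had 11150 copies, with 5459 IgA copies in technical library 1 and 5691 IgM copies in technical library 2, and 12 copies in spleen 4. Unlike the IGHV6-3 clonotype, it held 2 sequences, and the one with 5691 copies was in only 1 of the libraries.

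Lymph node replicate 1 stood apart. Of its 210 IgA clonotypes, 52 were found in spleen replicate 2 and 32 in spleen replicate 1, with 2 in both. The 52 held 212 lymph node copies, had a median of 346 copies in spleen 2, and 13 of them were among the 100 largest IgA clonotypes of that spleen. Of the 52, 43 were mostly IgA in spleen 2. Of the IgM clonotypes of lymph node 1, 0.562%, 1.52%, 0.718% and 0.883% were found in spleens 1 to 4, so spleen 1 held the smallest share. IgM shares in spleen 2, the deepest, were also 1.33% and 1.32% for lymph nodes 3 and 4. Of the IgG2 clonotypes of lymph node 1, 5.33% and 6.13% were found in spleens 1 and 2, against 0.267% in spleen 3 and 0 of 375 in spleen 4, which allows a share of up to 0.8%. In the other 3 lymph nodes the spleen of the same number held the largest share for all 3 classes. Spleen 1 was also the shallowest spleen, with 162168 copies, and spleen 2 the deepest, with 1362176. Whether lymph node 1 carries material of another number was not tested. The share present and the comparison of same-number with other-number spleens are also given without replicate 1. For some other results only the range over left-out replicates is given.

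The share of lymph node IgA clonotypes present in the spleen of the same number is a description, since presence divided the members. It was 15.2% in replicate 1 (32 of 210, exact Clopper-Pearson 95% interval 10.7% to 20.8%), 56.4% in replicate 2 (254 of 450, 51.7% to 61.1%), 40.2% in replicate 3 (106 of 264, 34.2% to 46.3%) and 39.6% in replicate 4 (170 of 429, 35.0% to 44.4%). These intervals cover counting error only. Replicate 1 was the lowest and replicate 2 the highest, with a mean of 37.9% ± 17.0 (SD, n = 4) and of 45.4% without replicate 1. With every spleen brought to the 162168 copies of the shallowest, the expected shares were 15.2%, 43.8%, 34.7% and 31.1%, so replicate 1 was still lowest. Present clonotypes held a larger share of the members' copies, all isotypes counted, than of the members, with 31.7%, 88.9%, 85.1% and 93.2% of copies in replicates 1 to 4.

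**Figure D1:**
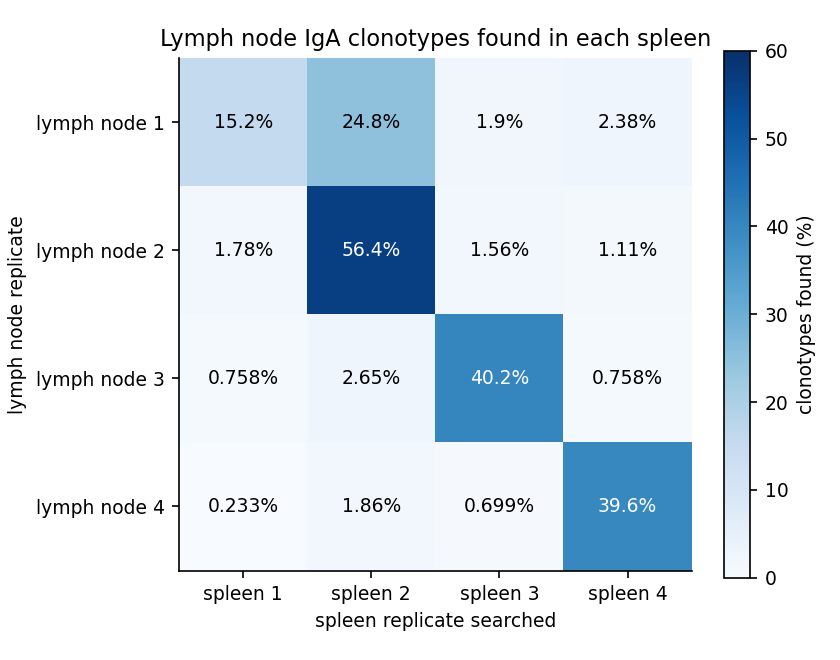
Percent of the IgA clonotypes of each lymph node replicate (rows) found in each spleen replicate (columns). The same-number shares on the diagonal are 15.2%, 56.4%, 40.2% and 39.6%, and the highest share off the diagonal is 24.8%, for lymph node 1 in spleen 2.

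In 3 of 4 lymph nodes the spleen of the same number held the largest share, while lymph node 1 had 15.2% in spleen 1 and 24.8% in spleen 2. The mean was 37.9% ± 17.0 in the same-number spleens and 3.37% ± 4.21 in spleens of other numbers (SD over 4 lymph nodes), higher in 4 of 4 lymph nodes against the mean of the other 3 spleens. In the exact one-sided permutation over the 24 pairings, p was 0.0417, the smallest the design allows. The means without replicate 1 were 45.4% and 1.44%, with an exact permutation p of 0.167, again the smallest possible with 3 replicates. The nearest off-diagonal value after that of lymph node 1 in spleen 2 was 2.65%, for lymph node 3 in spleen 2.

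Presence in spleen was more frequent for IgA than for IgM or IgG2 clonotypes of the same lymph nodes. IgM clonotypes, mostly those of unswitched B cells, were present at 0.562%, 4.69%, 2.86% and 3.56% in replicates 1 to 4. IgG2 clonotypes, a switched class, were present at 5.33%, 11.7%, 4.34% and 5.76%. Every IgA share lay above every IgM and IgG2 share. The means were 37.9% ± 17.0 for IgA, 6.79% ± 3.35 for IgG2 and 2.92% ± 1.74 for IgM (SD, n = 4), and IgA was higher in 4 of 4 replicates against each (exact two-sided permutation p = 0.0286, adjusted over both comparisons 0.0286). With the replicate number as a block the smallest possible exact p is 0.125, which both comparisons gave.

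Other switched classes were few. Over all 4 replicates, 66 of 349 IgG3 clonotypes were present (18.9%), 34 of 905 IgG1 clonotypes (3.76%) and 0 of 39 IgE clonotypes, which allows a share of up to 7.69%. In replicate 1 IgG3 exceeded IgA, with 7 of 37 clonotypes present (18.9%) against 32 of 210 for IgA (15.2%). IgD clonotypes, which share the unswitched B cells of IgM, were present at 2.51% (1367 of 54439). These classes were not tested.

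Large lymph node clonotypes were found in spleen more often than single-copy ones. Over all replicates, 28.8% of IgA clonotypes with 1 lymph node copy were present (226 of 786), 52.8% with 2 to 4 copies (195 of 369), 66.0% with 5 to 19 copies (97 of 147) and 86.3% with 20 or more (44 of 51). From the smallest to the largest size class, shares ran from 3.26% to 40.0% in replicate 1, 42.7% to 94.1% in replicate 2, 18.9% to 100% in replicate 3 and 26.8% to 85.7% in replicate 4. The largest size class held only 5 clonotypes in replicate 1 and 8 in replicate 3.

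**Figure D2:**
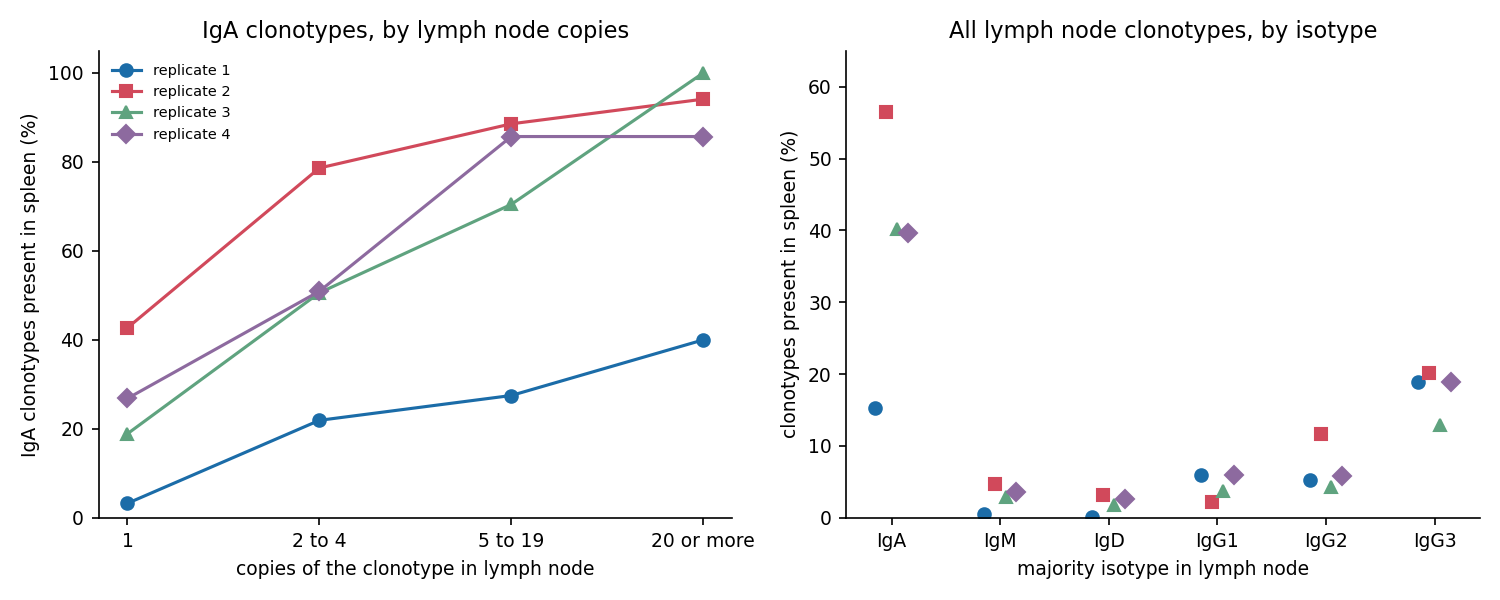
Left, percent of lymph node IgA clonotypes present in the same-number spleen (vertical axis) by copies in lymph node, 1 line per replicate. Right, percent of clonotypes present by majority isotype in lymph node, 1 point per replicate. Replicate 1 is lowest in each size class, and all IgA points lie above all IgM and IgG2 points.

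Clone size and detection in both technical libraries differed between present and absent clonotypes. Mean log2 copies per clonotype in lymph node were 2.19, 1.16, 1.91 and 1.63 in present clonotypes of replicates 1 to 4, against 1.02, 0.22, 0.57 and 0.33 in absent ones, and the groups did not overlap. The means were 1.72 ± 0.438 and 0.53 ± 0.355, a difference of 1.19 on the log2 scale, higher in 4 of 4 replicates (exact two-sided permutation p = 0.0286, adjusted over 5 measures 0.0476). Single-copy clonotypes made up 226 of the 562 present and 560 of the 791 absent clonotypes. Clonotypes seen in both technical libraries made up 34.4%, 31.5%, 36.8% and 40.6% of present ones, against 10.1%, 6.63%, 11.4% and 8.49% of absent ones. This difference, 26.7 percentage points, had the same exact permutation p and adjusted p. Both differences had an exact p of 0.125 with the replicate block, the smallest it allows. The 2 measures are linked, since a clonotype with 1 copy cannot be in both libraries. Among clonotypes with at least 2 copies, 54.8% of present and 34.4% of absent ones were in both (exact permutation p = 0.0857, adjusted 0.107). Presence in spleen is itself a detection, and larger clonotypes are easier to detect anywhere, so these differences cannot be told apart from detection.

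Mutation was tested by 2 measures that gave different answers. The mean share of mismatched V nucleotides was 2.76%, 2.70%, 3.01% and 2.38% in present clonotypes of replicates 1 to 4, against 2.33%, 2.42%, 2.38% and 1.93% in absent ones. Present clonotypes had the higher value in 4 of 4 replicates, but the groups overlapped, since 2.38% in present clonotypes of replicate 4 lay within the range of absent ones. The means, 2.71% ± 0.260 and 2.26% ± 0.229, differed by 0.450 percentage points and the difference did not pass (exact two-sided permutation p = 0.0857, adjusted 0.107). Clonotypes with no V mismatch at all made up 12.5%, 17.3%, 14.2% and 17.1% of present clonotypes, against 24.7%, 19.4%, 30.4% and 23.6% of absent ones, with no overlap. This share was lower in present clonotypes in 4 of 4 replicates, at 15.3% ± 2.33 against 24.5% ± 4.53 (exact permutation p = 0.0286, adjusted 0.0476). A single copy with a mismatch takes a clonotype out of this share, and present clonotypes had more copies. The difference over all sizes therefore cannot be told apart from clone size. With exactly 1 copy the share was 13.5% in present and 22.6% in absent clonotypes and did not pass (exact permutation p = 0.143, adjusted 0.257). Replicate 1 held only 3 present clonotypes of that size.

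The mutation difference depended on which clonotypes were counted. Weighted by copies, V mutation was 1.72% in present and 2.24% in absent clonotypes, the opposite order. Among clonotypes found in both technical libraries it was 2.30% and 2.51%, and 10.2% and 10.4% had no mismatch. Without the clonotypes that were also found in a spleen of another number it was 2.71% and 2.09% and passed (exact permutation p = 0.0286, adjusted 0.0357). That filter took out 55 absent clonotypes of replicate 1, against 11, 9 and 5 of replicates 2 to 4. The 52 clonotypes of lymph node 1 found in spleen 2 averaged 3.64%. With lineages (defined below) counted once V mutation was 2.26% and 2.23% (exact permutation p = 0.886). With exactly 1 copy it was 2.54% and 2.40%, and with at least 2 copies 2.63% and 1.86% (exact permutation p = 0.743 and 0.0857). With the replicate block the share without mismatch had an exact p of 0.125. Replacement changes, those that alter the amino acid, made up 68.3%, 76.9%, 76.9% and 63.4% of V mismatches in present clonotypes of replicates 1 to 4, against 72.5%, 69.0%, 68.6% and 70.6% in absent ones. Replicates differed in direction, and this share was not tested.

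**Figure D3:**
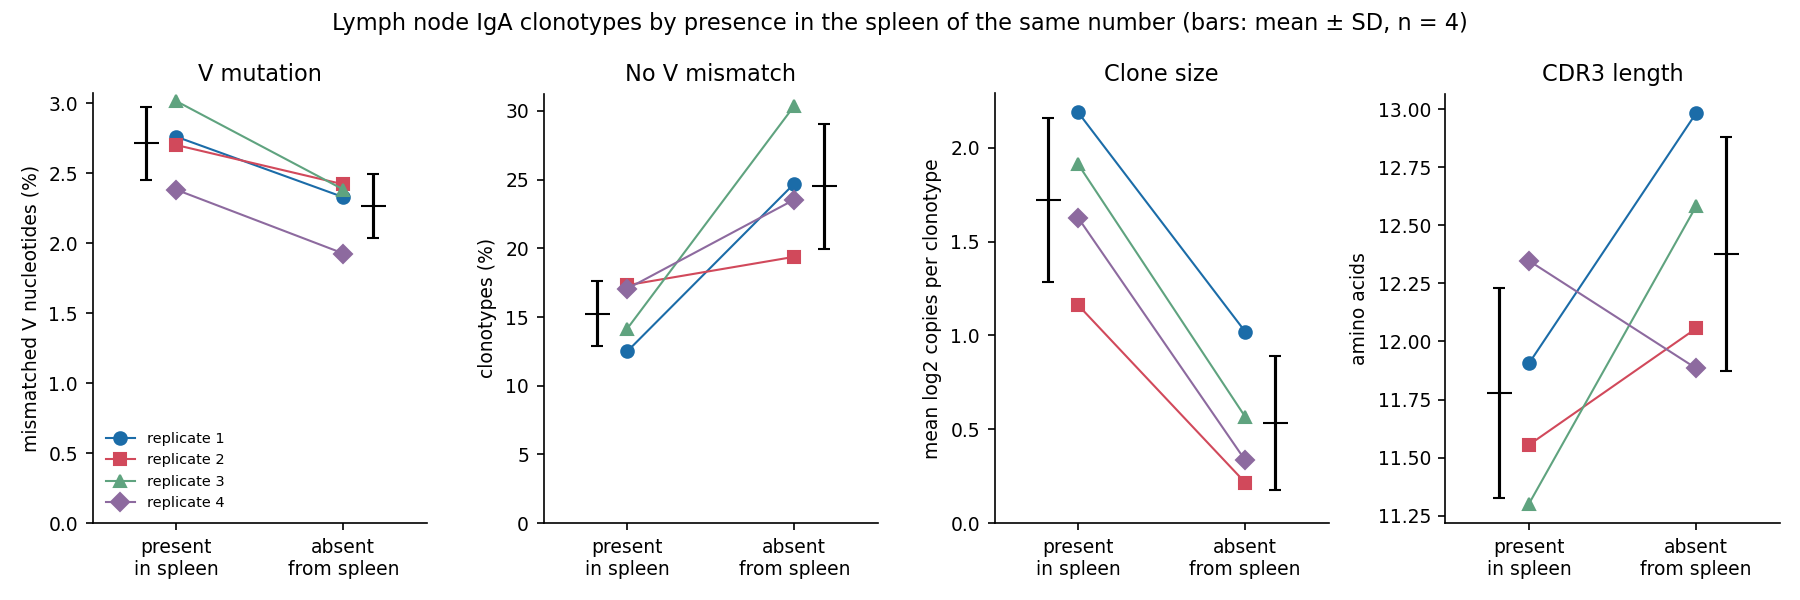
Lymph node IgA clonotypes present in (left of each panel) and absent from (right) the same-number spleen, with V mutation in percent, clonotypes without V mismatch in percent, mean log2 copies and CDR3 length in amino acids. Lines join the values of a replicate and black bars give mean and SD (n = 4); present clonotypes are above absent ones in clone size in all 4 replicates, and CDR3 length is lower in 3 of 4.

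CDR3 length did not pass the test. It was 11.9, 11.6, 11.3 and 12.3 amino acids in present clonotypes of replicates 1 to 4, against 13.0, 12.1, 12.6 and 11.9 in absent ones. Replicate 4 ran the other way from the other 3. The means were 11.8 ± 0.453 and 12.4 ± 0.502 (exact two-sided permutation p = 0.143, adjusted 0.143). With each lymph node lineage counted once, the mean was 11.7 in present and 12.4 in absent lineages, lower in 4 of 4 replicates, and passed (exact permutation p = 0.0286, adjusted 0.0476). A lineage here joins clonotypes of a replicate that share V, J and CDR3 length and match in at least 85% of CDR3 bases. The 1353 clonotypes formed 161, 326, 190 and 276 lineages in replicates 1 to 4.

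J segments supply the end of the heavy-chain V region, and the 4 mouse J genes lie in a row before Ighm, with IGHJ1 at chr12:113429781-113429833 farthest from it and IGHJ4 at chr12:113428514-113428567 nearest. None of the 4 passed the test (0 of 4, 0.0%). IGHJ4 made up 21.9%, 15.7%, 32.1% and 22.4% of present clonotypes, against 52.8%, 18.9%, 58.9% and 34.0% of absent ones. Its share was thus smaller among present clonotypes in 4 of 4 replicates, with means of 23.0% ± 6.75 and 41.1% ± 18.2, but absent clonotypes varied widely (exact two-sided permutation p = 0.171, adjusted 0.229). The order was not kept in every replicate with each lymph node lineage counted once. IGHJ4 then averaged 24.2% and 37.8%, and was larger among present lineages in 2 of 4 replicates (exact permutation p = 0.4, adjusted 0.686). IGHJ1 averaged 22.2% ± 5.75 and 14.1% ± 4.84, and IGHJ3 25.2% ± 6.14 and 15.0% ± 7.28, each larger among present clonotypes in 4 of 4 replicates (exact permutation p = 0.0857, adjusted 0.171). IGHJ2 averaged 29.6% ± 8.29 and 29.7% ± 16.8.

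**Figure D4:**
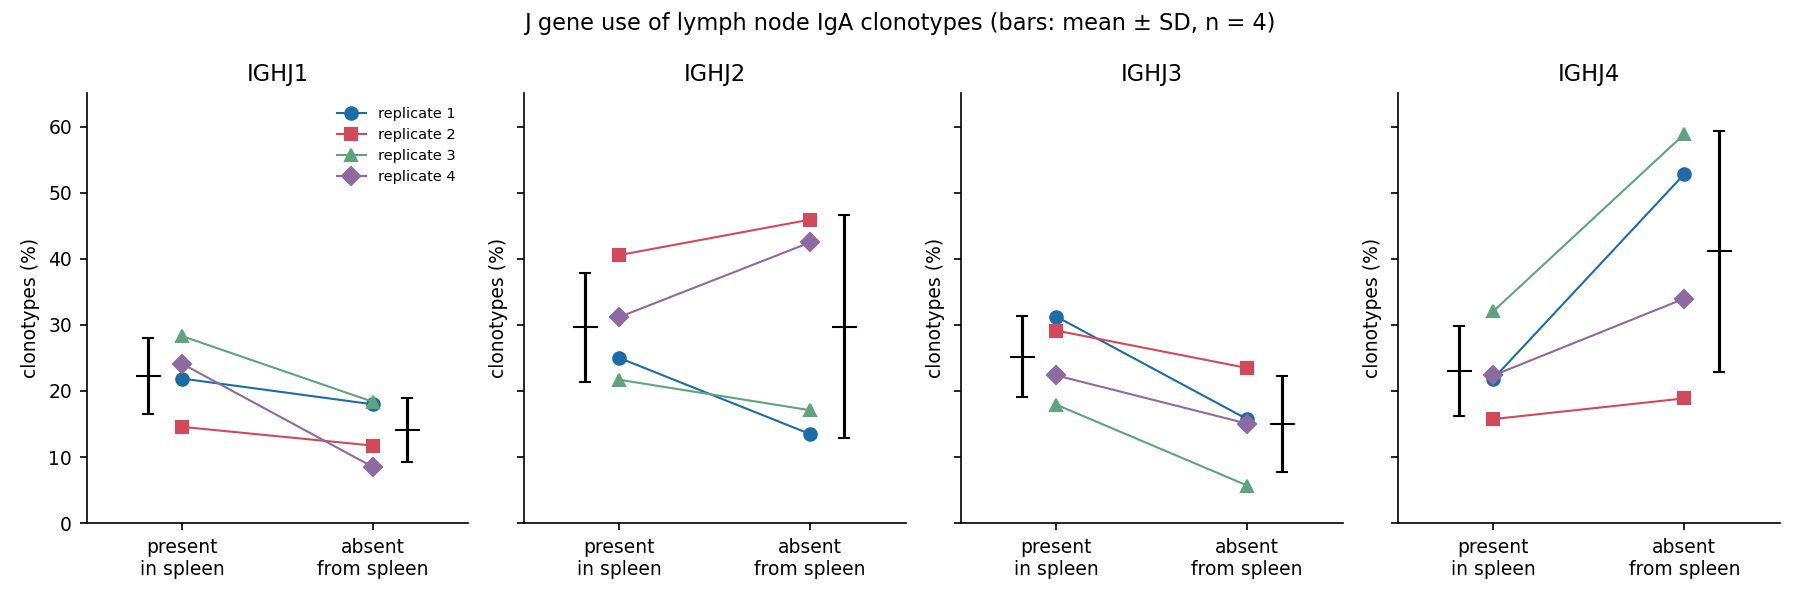
Percent of lymph node IgA clonotypes that use each J gene, present in (left) and absent from (right) the same-number spleen. Lines join the values of a replicate and black bars give mean and SD (n = 4); the IGHJ4 line slopes the same way in all 4 replicates, least in replicate 2, and the absent values range from 18.9% to 58.9%.

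V family shares did not pass for any of the 10 families with at least 1% of the clonotypes (0 of 10, 0.0%). The lowest p was that of IGHV6, a small family, at 6.25%, 2.36%, 9.43% and 6.47% of present clonotypes against 1.12%, 1.53%, 3.80% and 2.70% of absent ones (means 6.13% ± 2.90 and 2.29% ± 1.21, exact permutation p = 0.0857, adjusted 0.629). IGHV1, the largest mouse V family, made up 63.9% ± 3.01 of present and 67.6% ± 4.44 of absent clonotypes. The IGHV5 family made up 8.35% ± 4.04 and 12.7% ± 8.20. In replicate 4 it made up 9.41% and 23.9%, and the difference of the means, -4.33 percentage points, was -0.932 without replicate 4. The IGHV2 family made up 4.74% ± 3.70 and 4.37% ± 2.10. IGHV3 averaged 5.64% of present and 3.64% of absent clonotypes, and IGHV9 averaged 2.50% and 3.63%. The means of present and absent clonotypes were 2.72% and 1.42% for IGHV14, and 2.68% and 1.73% for IGHV7. They were 1.36% and 0.672% for IGHV10, against 1.07% and 1.57% for IGHV8.

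Single V genes were tested on the number of clonotypes per gene, with edgeR's quasi-likelihood test over the 43 V genes with at least 10 clonotypes. None passed an adjusted p of 0.05 (0 of 43, 0.0%), while 3 had an unadjusted p under 0.05, and DESeq2 also called 0, with 4 unadjusted. With the replicate as a block, which compares the present and absent clonotypes of the same lymph node, 2 of 43 (4.65%) were called, both lower among present clonotypes. IGHV1-18, at chr12:114682632-114682925, had 1, 4, 0 and 3 present clonotypes in replicates 1 to 4, against 4, 12, 9 and 15 absent ones. Its log2 fold change, present over absent, was -2.34 (SE 0.717, edgeR adjusted p 0.191) and -2.46 with the block (adjusted p 0.0162). IGHV5-9-1, at chr12:113736113-113736406, had 0, 1, 0 and 2 present clonotypes against 3, 0, 1 and 36 absent ones, with -3.55 (edgeR adjusted p 0.233) and -3.22 with the block (adjusted p 0.0171). The remaining gene of the 3 with an unadjusted p under 0.05, IGHV5-16, went the other way. It had 1, 5, 1 and 4 present clonotypes against 0, 0, 0 and 1 absent ones, with 2.89 (edgeR adjusted p 0.233) and 2.91 with the block (adjusted p 0.449).

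Most of the absent IGHV5-9-1 clonotypes belonged to a single lineage. In replicate 4, 33 of its 38 clonotypes were 1 lineage with 63 copies in all, of which the largest clonotype held 17 and 22 had 1 copy each, and none was present in spleen. All 33 junctions differed by 1 base (25) or 2 bases (8) from that of the IGHV5-9-1 clonotype with 11150 copies described above, which is not a member. Whether sequencing or amplification errors from that clonotype account for the lineage was not tested. With lineages counted once the IGHV5 family difference was 0.490 percentage points, and IGHV5-9-1 fell below the count minimum and was not tested. The 18 IGHV1-18 clonotypes of replicate 4 formed 11 lineages. The largest held 7 clonotypes, of which 1 was present and 6 had 1 copy each, with 333 of its 339 copies in 1 clonotype. In replicate 2 the largest held 6 of 16 clonotypes, with 2 present and 5 of 1 copy each. With lineages counted once IGHV1-18 had a log2 fold change of -1.34 without the block (edgeR adjusted p 0.154) and -1.43 with it (adjusted p 0.189). Its call with the block was thus lost, and 0 of 31 genes were called with the block (3 at an unadjusted p under 0.05). The median log2 fold change over the 43 tested genes was -0.47, so gene values are best read against that.

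The 5 V genes with most present clonotypes were IGHV1-55, IGHV1-26, IGHV1-53, IGHV1-82 and IGHV6-3, and none differed by the test. IGHV1-55, at chr12:115208137-115208527, had 5, 18, 10 and 21 present clonotypes against 19, 0, 5 and 9 absent ones, that is 11.1% ± 3.69 of present and 4.33% ± 4.51 of absent clonotypes (log2 fold change 0.80, edgeR adjusted p 0.707). IGHV1-26 had 45 present and 50 absent clonotypes, IGHV1-53 26 and 34, IGHV1-82 20 and 30, and IGHV6-3 20 and 13. Of the IGHV1 genes 27 were tested, with 0 called and a median log2 fold change of -0.49, of the IGHV5 genes 6, with 0 called and -1.57, and of the IGHV2 genes 2, with 0 called and -0.32, beside -0.47 for all 43. Genes used by B-1 cells were rare, with 3 present and 2 absent clonotypes for IGHV11-2, 2 and 1 for IGHV12-3, and 0 and 1 for IGHV7-1.

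In spleen the counterparts of lymph node IgA clonotypes were mostly IgA too. IgA was the majority class of 31 of 32, 216 of 254, 96 of 106 and 149 of 170 counterparts in replicates 1 to 4, against 12.9%, 6.96%, 5.05% and 5.52% of all spleen clonotypes. The means were 90.0% ± 5.09 and 7.61% ± 3.63, with no overlap and a higher value in 4 of 4 replicates (exact two-sided permutation p = 0.0286, the smallest possible, and 0.125 with the replicate block). Weighted by spleen copies the means were 93.1% and 31.3%, a smaller difference of 61.9 percentage points (exact permutation p = 0.0286). Of the 562 counterparts 492 were IgA (87.5%), 51 IgM, 13 IgG2, 1 IgG3 and 5 without a majority class, and 11 of the 13 IgG2 counterparts were in replicate 2. By comparison, lymph node IgM clonotypes found in spleen were IgA there in 11.1% of cases in replicate 1 (14 of 126), 2.63% in replicate 2 (111 of 4223), 1.27% in replicate 3 (15 of 1182) and 1.57% in replicate 4 (42 of 2672).

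The 51 clonotypes that were IgA in lymph node and IgM in spleen numbered 1, 24, 8 and 18 in replicates 1 to 4. In replicates 2 to 4 the spleen also held at least 1 IgA copy for 16 of 24, 3 of 8 and 6 of 18 of them. Their lymph node V mutation averaged 2.44%, 0.338% and 1.52% in replicates 2 to 4, against 2.78%, 3.20% and 2.48% for clonotypes that were IgA in both tissues. The IgM group was lower in each of these 3 replicates, with too few clonotypes in replicate 3 to say more. The largest examples were the IGHV6-3 clonotype of replicate 4 described above and an IGHV1-9 clonotype of the same replicate, with 766 lymph node copies, all IgA, and 1 spleen copy, which was IgM.

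Counterparts were larger than most IgA clonotypes of the spleen. The median over counterparts of every class was 23, 64, 45 and 25.5 spleen copies in replicates 1 to 4. For counterparts that were IgA in spleen it was 25, 52, 50.5 and 30, against a median of 1 copy for all spleen IgA clonotypes in each. Those that were IgA in spleen made up 0.935%, 0.707%, 0.849% and 0.886% of the spleen IgA clonotypes, while all counterparts held 5.56%, 24.4%, 23.8% and 23.9% of the spleen IgA copies. Of the 100 largest spleen IgA clonotypes, 7, 35, 25 and 27 were found as IgA in the lymph node of the same number. These values describe detection in both tissues and were not tested. The larger share lay in lymph node for 13, 78, 40 and 70 of the present clonotypes, between 30.7% and 41.2% of them. Across present clonotypes, Spearman's correlation of lymph node and spleen copies lay between 0.395 and 0.459 in the 4 replicates, which is a description over 32 to 254 clonotypes of the same libraries.

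**Figure D5:**
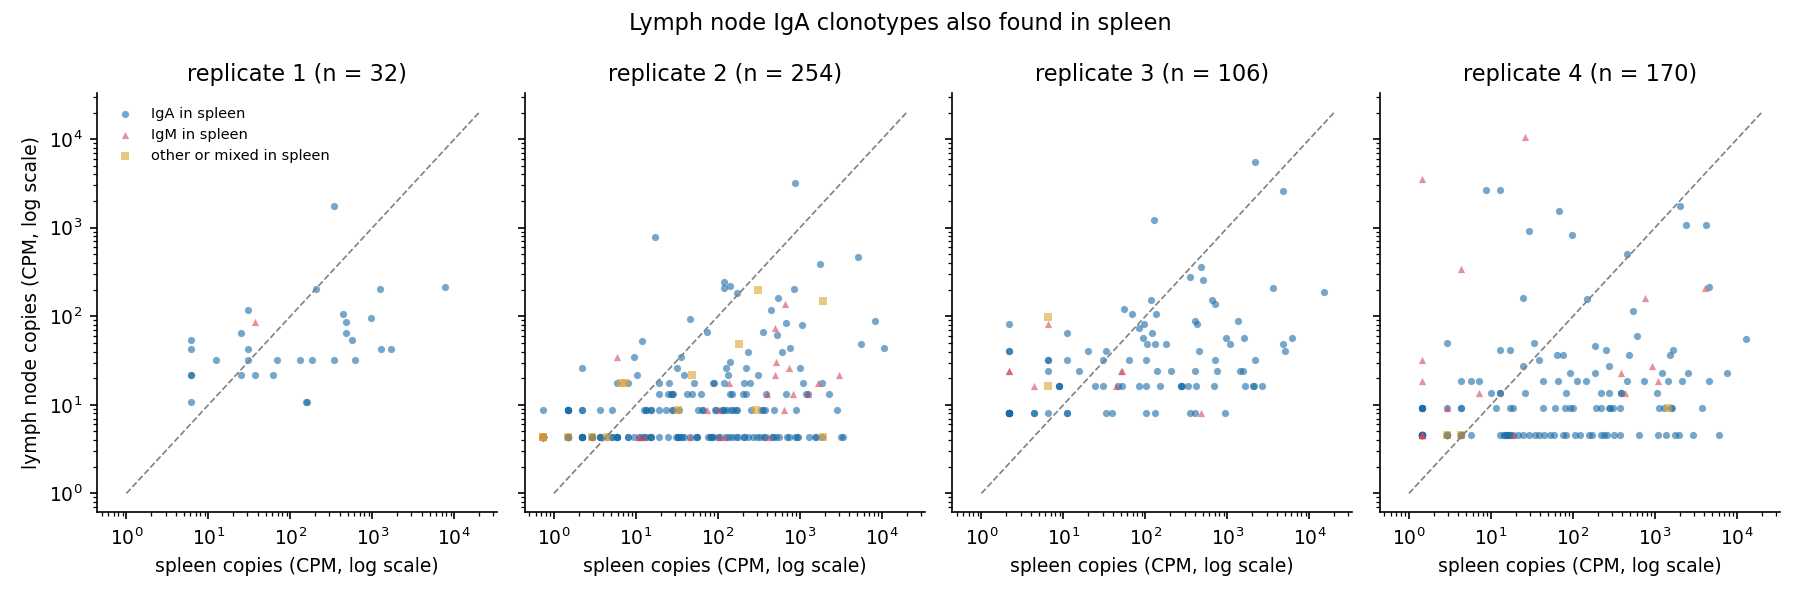
Lymph node copies (vertical) against spleen copies (horizontal), each scaled to its library total (CPM) on a log axis, for the 562 lymph node IgA clonotypes present in the same-number spleen, 1 panel per replicate. Colour and shape give the isotype in spleen, the dashed line marks equal shares, and between 30.7% and 41.2% of the clonotypes lie above it.

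No difference in V mutation between the tissues was detected for the same clonotypes. Mean V mutation was 2.71% ± 0.260 in lymph node and 2.80% ± 0.432 in spleen, a difference of -0.09 percentage points (exact two-sided permutation p = 0.771). That test leaves the tissues unpaired, and with the replicate block, which pairs them by number, the exact p was 0.5. Weighted by the copies of each tissue it was 1.72% in lymph node and 3.25% in spleen, lower in lymph node in 4 of 4 replicates. This difference of -1.53 percentage points (exact permutation p = 0.0857) does not compare like with like, since a clonotype carries different weights in the 2 means. The IGHV6-3 clonotype of replicate 4, for example, had 2337 lymph node and 18 spleen copies, with V mutation of 0.671% and 0.746%. An identical sequence from CDR2 to the end of J was found in both tissues for 366 of the 562 clonotypes (65.1%), at 71.9%, 66.5%, 63.2% and 62.9% in replicates 1 to 4. By distinct sequences, 403 of the 1060 lymph node IgA sequences of these clonotypes were also in spleen (38.0%).

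Among the 3 largest present clonotypes of each replicate, the most copied sequence was the same in both tissues for 8 of 12 and differed for 4. The IGHV3-6 clonotype of replicate 2, with 180 lymph node and 23 spleen copies, had the same 7 V mismatches in both, and the IGHV1-26 clonotype of replicate 3, with 319 lymph node and 2157 spleen copies, had 9 and 7 mismatches, 6 of them shared. Their sequences from CDR2 to the end of J are shown because they carry these patterns, as deposited, with mismatches to the V gene in capitals.
IGHV3-6, replicate 2, lymph node and spleen: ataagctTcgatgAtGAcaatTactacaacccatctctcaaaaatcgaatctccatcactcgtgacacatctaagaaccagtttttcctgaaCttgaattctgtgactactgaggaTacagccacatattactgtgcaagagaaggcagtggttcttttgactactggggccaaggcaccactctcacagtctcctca
IGHV1-26, replicate 3, lymph node: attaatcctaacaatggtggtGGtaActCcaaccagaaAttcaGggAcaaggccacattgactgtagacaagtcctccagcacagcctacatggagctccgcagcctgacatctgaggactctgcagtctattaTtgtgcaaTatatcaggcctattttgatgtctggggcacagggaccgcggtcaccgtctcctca
IGHV1-26, replicate 3, spleen: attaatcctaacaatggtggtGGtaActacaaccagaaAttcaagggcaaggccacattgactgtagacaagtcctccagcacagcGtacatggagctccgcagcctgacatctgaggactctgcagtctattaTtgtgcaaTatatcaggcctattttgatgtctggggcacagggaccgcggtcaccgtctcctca
The remaining pairs that differed were the IGHV1-77 clonotype of replicate 3, with 2 mismatches in lymph node and 0 in spleen, the IGHV1-9 clonotype of replicate 4, with 0 and 2, and the IGHV1-22 clonotype of replicate 2.

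The IGHV1-22 clonotype differed most. In replicate 2 it had 107 lymph node copies with 2.65% V mutation and 6988 spleen copies with 10.9%, and its most copied sequences had 2 and 19 V mismatches. It was the fifth largest IgA clonotype of spleen 2. The same clonotype had 22 copies in lymph node 1, where mutation was 10.5%, and 0 copies in spleen 1, so it is 1 of the clonotypes behind the overlap of lymph node 1 with spleen 2. It was followed into lymph node 1 after its values were seen. Within spleen 2 the mismatches of its 57 sequences ran from 0 to 19, and within lymph node 2 those of its 15 sequences from 0 to 17. The most copied sequence of each library is given with V mismatches in capitals.
IGHV1-22, lymph node 2: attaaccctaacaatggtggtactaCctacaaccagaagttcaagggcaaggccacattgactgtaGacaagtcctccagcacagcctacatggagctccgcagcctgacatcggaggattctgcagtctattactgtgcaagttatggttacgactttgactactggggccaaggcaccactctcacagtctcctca
IGHV1-22, lymph node 1: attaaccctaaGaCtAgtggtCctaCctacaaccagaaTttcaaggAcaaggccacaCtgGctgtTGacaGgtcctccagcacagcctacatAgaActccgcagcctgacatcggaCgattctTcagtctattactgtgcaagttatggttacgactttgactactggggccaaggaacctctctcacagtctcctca
IGHV1-22, spleen 2: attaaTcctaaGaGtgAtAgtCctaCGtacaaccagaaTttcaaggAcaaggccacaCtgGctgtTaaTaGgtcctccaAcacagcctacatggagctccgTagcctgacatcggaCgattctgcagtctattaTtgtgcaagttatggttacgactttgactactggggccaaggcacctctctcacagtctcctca
The shared junction is 33 bases long.

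Clonotypes absent from spleen often had a relative there. Of the 791, 464 matched a spleen clonotype of equal V, J and CDR3 length in at least 85% of CDR3 bases, and 327 did not. Counting relatives as present raised the share present to 71.5% of IgA clonotypes, but to 42.5% of IgM and 44.9% of IgG2 clonotypes, and the IgA difference then did not pass (exact permutation p = 0.114, adjusted 0.114). The clonotype or a relative was found for 71.5% of IgA clonotypes in same-number spleens and for 35.0% in spleens of other numbers, with a higher share in the same number in 3 of 4 lymph nodes (exact one-sided permutation p = 0.0417). V mutation averaged 2.71% ± 0.260 in clonotypes present themselves, 2.43% ± 0.585 in those with a relative only and 2.28% ± 0.363 in those with neither. Clonotypes without a V mismatch made up 15.3% ± 2.33, 22.1% ± 4.44 and 27.7% ± 8.24 of these sets, and single-copy clonotypes 31.1% ± 18.5, 69.7% ± 15.7 and 69.2% ± 16.5. These 3 sets were not tested against each other.

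Some of the same clonotypes were also found in skin. In the skin of the same number, 15 of the 562 present clonotypes were found (2.67%), at 1, 6, 3 and 5 in replicates 1 to 4, and 3 of the 791 absent ones (0.379%). In skins of the other 3 numbers, 3 of 1686 comparisons of present clonotypes matched (0.178%) and 4 of 2373 of absent ones (0.169%). Skin replicates held only 275 to 350 clonotypes each, so these are counts of few events and were not tested.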

How the data were processed

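Heavy-chain transcripts of lymph node and spleen were analysed, with skin and the positive control entering only the totals and the skin overlap. Per the labels' protocols, RNA was reverse-transcribed with constant-region primers carrying a 10-nucleotide molecular identifier, amplified with V gene primers and sequenced in pairs. The deposited sequences of the clonotypes shown run from CDR2 to the end of J. The deposited tables give 1 row per distinct sequence with a whole-number count, called copies. The file headers do not say whether this count is of identifiers or reads. Deposited V mismatches and aligned V length, a measure other than a count, gave V mutation, pooled over the copies of a clonotype and averaged over clonotypes. The build was mm10, per the submitters' processing notes, and no aligner is named there. Gene positions are from RefSeq GRCm38, which named 86 of the 89 V genes of the members.

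The copies of 2 technical libraries were added. Majority isotype needed more than 50% of copies. In the deposited tables nearly every distinct sequence of a library stands under 1 isotype, with at most 50 exceptions in a replicate. Members, lists and tests were chosen with earlier results of these data known, so a pattern reported before has no independent support here. Exact two-sided permutation tests used the 70 splits of 4 against 4 (smallest p 0.0286), adjusted by Benjamini-Hochberg over 5 measures, 4 J genes or 10 V families. The replicate block, an exact sign-flip test, pairs the values compared by replicate number and cannot go below 0.125. V genes with at least 10 clonotypes were tested with edgeR 4.0.16 (TMM factors 0.601 to 2.00), with DESeq2 1.42.0 as an alternative. On a single draw of simulated counts for 43 V genes the edgeR step recovered 80% of 10 genes changed 4-fold. The simulated replicates shared the same V gene proportions, so this share is not the power of the test on the data. In the data IGHV5-9-1 and IGHV5-16, at log2 fold changes of -3.55 and 2.89, did not pass (edgeR adjusted p 0.233 each). Named genes were those with an adjusted p under 0.05 and, where fewer than 3 passed, the 5 V genes with most present clonotypes. Named clonotypes were the 3 largest present and the largest absent of each replicate found in both technical libraries. Values were computed with Python 3.11.15, pandas 2.3.3, scipy 1.17.1 and R 4.3.3.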

Additional observations from a re-analysis of the deposited data

Results flagged for a closer look

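The IGHV1 family made up 59.4% of the present clonotypes of replicate 1 and 65.1% to 65.7% of those of the other 3 replicates, so replicate 1 lay farther from the rest than the spread among them. Replicate 1 held 32 present clonotypes. Of 43 sets of 4 values screened, about 1 in 20 is singled out by chance.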

How the results depend on the processing

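Of 149 values of the comparisons under alternatives other than the replicate block and left-out replicates, 123 kept their direction and side of the threshold, as did 125 of 152 values of single J genes and V families. The exact tests on 3 replicates cannot go below 0.1, or 0.167 for pairings, and the block not below 0.125, so losses there say nothing about stability. Depth limits absence: a clonotype absent from a spleen may lie below its depth, and V gene counts were too sparse for edgeR's own filter, which kept 2 genes and was not run further.

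The share present was 57.2% with at least 2 lymph node copies, 67.0% in both technical libraries, 71.5% with relatives at 85% identity and 74.7% weighted by copies. The difference in clonotypes without V mismatch lost its call at -14.4 percentage points with at least 2 copies, -9.13 with exactly 1 copy, -0.197 in both technical libraries, -8.85 with relatives, -4.92 weighted by copies and -10.7 with lineages counted once. The log2 copies difference lost its call at 0.84, 1.07 and 0.62 with at least 2 copies, both libraries and relatives. The difference in clonotypes seen in both libraries did so at 20.3, 17.2 and 51.7 with at least 2 copies, relatives and weights. IgA minus IgM sharing lost its call at 20.8, 29.0 and 62.5 percentage points with exactly 1 copy, relatives and weights, and IgA minus IgG2 sharing at 19.3, 26.5 and 56.6. V mutation turned to -0.212 in both libraries and -0.521 weighted by copies, and passed at 0.620 without clonotypes found in another spleen. CDR3 length passed at -0.680 with lineages counted once. The last 2 alternatives were added after the data were seen. The exact permutation p stayed at 0.0286, the smallest possible, for log2 copies at 0.84, both libraries at 17.2 and 51.7, and IgA minus IgM at 62.5. Their adjusted p were 0.107, 0.143, 0.114 and 0.0571, so these calls were lost in the adjustment alone. The cause of the other changes was not tested.

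The replicate block pairs the values compared by replicate number. With it the values stayed at -9.25 percentage points without V mismatch, 1.19 log2 copies and 26.7 in both libraries. They also stayed at 82.4 for spleen isotype, 34.9 for IgA minus IgM and 31.1 for IgA minus IgG2. Each had an exact p of 0.125. V gene calls went to 2 (0 with lineages counted once, a choice made later with these results known). The block changed no other call.

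Leaving out each replicate in turn gave same-number minus other-number sharing of 30.6 to 44.0 percentage points, clonotypes without V mismatch of -11.6 to -6.93, log2 copies of 1.14 to 1.27, both libraries of 24.8 to 27.5, spleen isotype of 81.4 to 83.9, IgA minus IgM of 29.3 to 41.7, IgA minus IgG2 of 26.5 to 38.1, IGHJ2 of -4.02 to 3.59, IGHV2 of -0.703 to 1.44 and IGHV14 of -0.145 to 2.49.

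Differences that never passed changed sign as follows, in percentage points. IGHJ2 was 3.49 with at least 2 copies, 10.1 in both libraries, 0.442 with at least 2 spleen copies, 1.59 with relatives, 6.31 weighted, 1.92 without clonotypes of another spleen and 0.987 with lineages, and IGHJ1 was -2.33 weighted. IGHV1 was 0.852 with at least 2 copies, and IGHV2 was -0.0773 with at least 1 IgA copy. With exactly 1 copy IGHV2 was -1.60, IGHV5 1.72, IGHV6 -0.520, IGHV7 -0.937, IGHV9 0.236 and IGHV14 -0.112. In both libraries IGHV7 was -2.16, IGHV9 0.497 and IGHV10 -0.133. With relatives IGHV8 was 0.108, IGHV9 1.71 and IGHV14 -0.439. Weighted, IGHV7 was -1.27, IGHV10 -0.388 and IGHV14 -0.423. IGHV2 was -0.992 without clonotypes of another spleen, and IGHV5 was 0.490 with lineages.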
